A study of Mus musculus with 6 samples.

Results

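The collagens and laminins were examined in hippocampal RNA of methamphetamine (MA)-treated and control mice. Members were the rows of the deposited gene table whose symbol is that of a collagen chain (Col, a number, a, a number) or of a laminin chain (Lama, Lamb or Lamc and a number), with Col8a1 left out. This gave 54 of the 16060 rows, 43 collagen and 11 laminin genes. Collagens are secreted or membrane-bound proteins whose chains wind into triple helices. Laminins are cross-shaped trimers of an alpha, a beta and a gamma chain. In the brain, laminins and type IV collagen form the basement membranes around blood vessels and under the pia, while fibrillar collagens are found mainly in the meninges and around larger vessels.

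The mice were adult male C57BL/6 animals. The 3 mice labelled Control received saline, and the 3 labelled MA received MA intraperitoneally at doses raised each week, and hippocampus was collected after behavioral testing that followed the last week. Each mouse gave 1 library of bulk tissue, so that more cells of a type and more RNA per cell cannot be told apart. Levels are given as RPKM, reads scaled to gene length and library size, recovered from the deposited log2(RPKM + 1) values. The deposited values had also been normalized between libraries in a way that the sources do not describe. Differences (MA minus control) and tests were made on the deposited scale, which understates the change of low genes, with limma over all genes that reached 0.5 RPKM in at least 3 libraries. All 10 hippocampal neuron markers, among them Prox1 of the dentate gyrus and Wfs1 of CA1, were detected in every library, at no less than 5.85 RPKM. Of these 10, 3 were higher and 7 lower in MA, with a median difference of -0.10 on the log2 scale. At an unadjusted p under 0.05 (limma), 1 was higher (Grik4) and 2 were lower (Neurod6 and Wfs1). Among all tested genes, 4.99% were higher and 5.46% lower at that threshold. The library MA replicate 3 correlated least with the others of its group (mean Pearson r = 0.978 across genes, against 0.984 to 0.993 for the other 5), and the value without it is given beside each difference of at least 0.1 that it moved by over 1.5 times.

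Markers of choroid plexus epithelium, which makes cerebrospinal fluid and lies next to the hippocampus, differed more between the groups than the other 5 marker lists examined, by the median difference (1.68 on the log2 scale). All 12 of 12 were higher in MA, 6 of them at an adjusted p under 0.05 (limma). Of all tested genes, 47.3% were higher, and 0.263% passed the adjusted threshold in either direction. The marker lists were chosen with earlier results of these data known. The summed level of the 12 was 68.1 to 424.9 RPKM in the control and 1790.6 to 5111.8 RPKM in the MA libraries. Without Ttr, the transthyretin gene that made up most of this sum, it was 10.4 to 14.5 and 46.9 to 78.6 RPKM. Markers of meningeal and perivascular fibroblasts summed to 79.5 to 106.3 RPKM in control and 152.5 to 254.9 RPKM in MA. At an unadjusted p under 0.05 (limma), 4 of 12 were higher and 0 lower, against 4.99% and 5.46% of all tested genes. The median difference of the 12 was 0.07, with 9 higher and 3 lower. Igf2 and Igfbp2 made up most of the sum. These genes, Dcn and Slc6a20a were the 4 past the unadjusted threshold. The differences of the remaining markers lay between -0.14 (Aldh1a2) and 0.21 (Slc6a13). Igf2 was at 23.1 to 29.2 RPKM in control and 46.9 to 84.4 RPKM in MA. Igfbp2 was at 23.0 to 37.1 RPKM in control and 51.8 to 127.5 RPKM in MA. No marker of either list was at 0 in any library. The part of these cells in the differences described here was not tested.

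Most collagens and laminins were expressed at low levels in the hippocampus. The median of the members' mean levels was 1.02 RPKM, and 8 members had a mean of at least 5 RPKM. The highest was Col9a3, a chain of type IX collagen, with a mean of 13.9 RPKM over the 6 libraries, or 12.6% of the summed level of the 54 genes. It was followed by the laminin chain gene Lamc1 at 8.19, the neuronal transmembrane collagen gene Col25a1 at 7.29, Lamb2 at 7.27 and Col4a2 at 7.19 RPKM. These 5 genes together made up 39.7% of the members' summed level. Col1a1, Col1a2 and Col3a1, the main fibrillar collagens of connective tissue, were at 1.47, 2.59 and 0.783 RPKM.

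To ask whether MA changed this group, the MA libraries were compared with the control libraries. After Benjamini-Hochberg adjustment over the 13321 tested genes, 0 of the 38 members that passed the filter differed (limma, smallest adjusted p = 0.147), where 0.263% of all tested genes did. At an unadjusted p under 0.05, 11 of the 38 were higher in MA, against 4.99% of all tested genes, and 1 was lower, against 5.46%. The same 12 genes were those whose groups did not overlap, where 7.32% of all tested genes lay higher and 10.2% lower without overlap. The median difference of the 38 was 0.19 on the log2 scale and that of all tested genes was -0.01. The members' median was 0.11 without MA replicate 3, 0.086 without the filter and 0.069 with sample quality weights. By family, 24 of 29 tested collagens and 5 of 9 tested laminins were higher in MA, where 47.3% of all tested genes were. The count of 11 was 5 without Control replicate 1 (background 3.21%) and 6 without MA replicate 2 (4.13%), and it was 10 without MA replicate 3, where 11.9% of all tested genes were higher at this threshold. No member passed the filter through the libraries of 1 group alone, and 29 of the 38 were over its minimum in all 6 libraries.

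**Figure D1:**
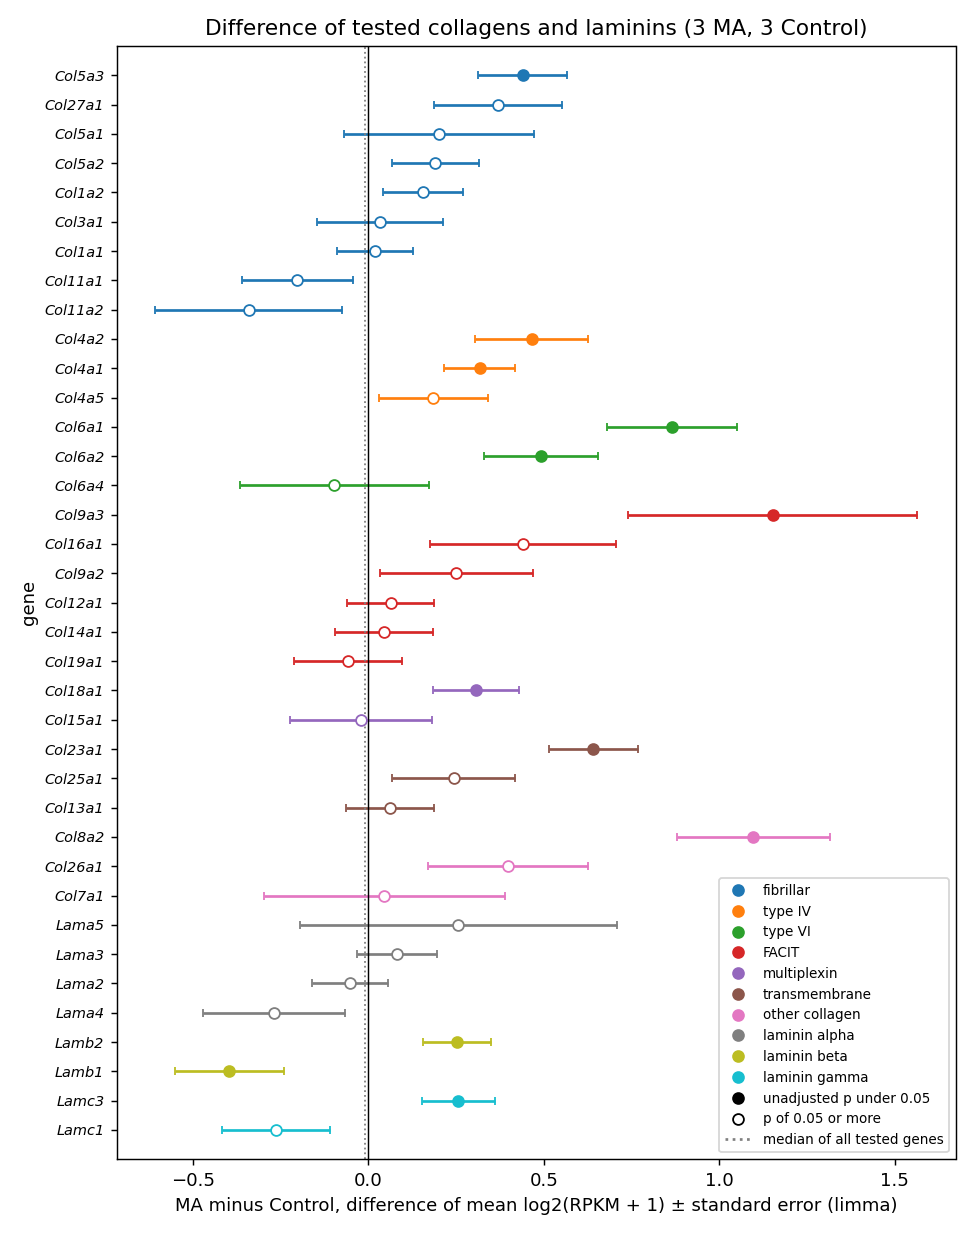
Difference of the tested members described here between the MA and the control libraries, in mean log2(RPKM + 1) with its limma standard error, grouped by structural class. Filled points have an unadjusted p under 0.05, and the dotted line is the median of all tested genes at -0.01. Of the 12 filled points, 11 lie to the right of 0 and Lamb1 lies to the left.

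**Figure D2:**
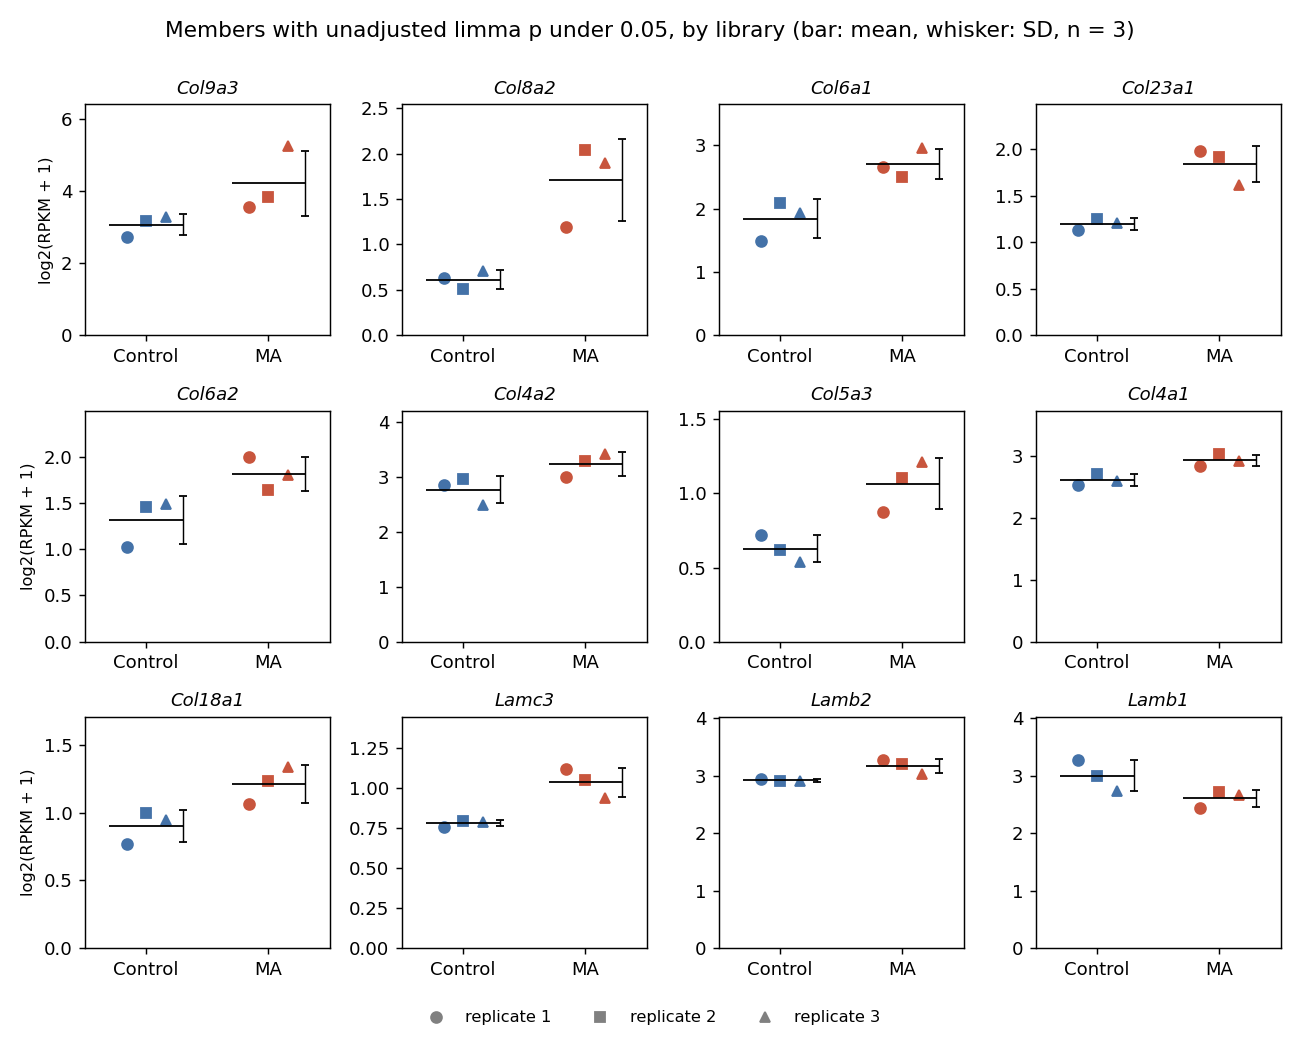
Levels of the 12 members with an unadjusted limma p under 0.05 in each library, in log2(RPKM + 1), with the mean (bar) and SD (whisker) of 3 libraries. In 11 panels each MA library lies above each control library, and in the Lamb1 panel each lies below.

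Type IV collagen, the sheet-forming collagen of basement membranes, was higher in MA for the genes of its common chains, without passing the adjusted threshold. Its genes lie as head-to-head pairs, and the starts of Col4a1 (chromosome 8 of GRCm38, 11198423 to 11312826, minus strand) and Col4a2 (11312805 to 11449287, plus strand) overlap by 22 bases in GENCODE M21. The promoter windows of both, 250 bases before to 50 after the start in RefSeq on GRCm38.p6, share 78 bases and are shown because the pair shares its start region and both genes were higher in MA. Capitals mark CCAAT boxes (CCAAT) and GC boxes (GGGCGG) on either strand, and the TATA box (TATAAA) had no match in them.
Col4a1, chr8:11312777-11313076, minus strand: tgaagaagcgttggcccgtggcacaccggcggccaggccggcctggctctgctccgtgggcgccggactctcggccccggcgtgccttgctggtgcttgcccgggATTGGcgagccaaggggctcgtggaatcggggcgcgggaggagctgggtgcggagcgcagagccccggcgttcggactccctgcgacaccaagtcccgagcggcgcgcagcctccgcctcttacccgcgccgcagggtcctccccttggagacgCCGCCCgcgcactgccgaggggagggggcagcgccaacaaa
Col4a2, chr8:11312555-11312854, plus strand: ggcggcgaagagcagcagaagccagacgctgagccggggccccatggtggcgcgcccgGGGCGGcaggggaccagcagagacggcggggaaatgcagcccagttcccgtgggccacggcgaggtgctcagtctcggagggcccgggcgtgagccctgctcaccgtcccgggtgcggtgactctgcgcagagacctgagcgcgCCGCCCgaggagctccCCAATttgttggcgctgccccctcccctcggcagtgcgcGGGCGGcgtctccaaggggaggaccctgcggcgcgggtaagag
The Col4a1 window held 1 CCAAT box and 1 GC box, and the Col4a2 window held 1 and 3. The GC box of Col4a1 and the last GC box of Col4a2 are the same site, read on opposite strands within the shared bases. Of the first listed windows of 27025 genes, 37.9% held a CCAAT box, 35.9% a GC box and 14.2% a TATA box. Promoters were matched for 39 members, of which 13 held a CCAAT box, 24 a GC box and 5 a TATA box.

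The chains of Col4a1 and Col4a2 combine in the most widespread type IV trimer. Col4a1 was at 4.76, 5.56 and 5.03 RPKM in Control replicates 1, 2 and 3 and at 6.18, 7.14 and 6.55 RPKM in MA replicates 1, 2 and 3. The difference was 0.32 on the log2 scale (standard error 0.10, limma adjusted p = 0.350). Col4a2 was at 6.27, 6.77 and 4.61 RPKM in control and at 7.04, 8.72 and 9.70 RPKM in MA, with a difference of 0.47 (standard error 0.16, limma adjusted p = 0.383). For both genes the groups did not overlap, but the lowest MA library was close to the highest control library. The smallest p that an exact permutation test of 3 against 3 libraries allows is 0.1 (two-sided), and this was reached by each of the 12 genes that did not overlap.

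Col4a5, whose chain occurs in specialised basement membranes such as that of the kidney glomerulus, was at 0.707 to 0.884 RPKM in control and at 0.835, 0.806 and 1.54 RPKM in MA. Its groups overlapped, and MA replicate 3 stood above the rest. Its difference was 0.19 (standard error 0.16, limma adjusted p = 0.739), and 0.02 without MA replicate 3. Col4a3, Col4a4 and Col4a6 did not reach the filter. Col4a3, whose chain joins that of Col4a5, was at 0.0978, 0.0539 and 0.0431 RPKM in control and at 0.142, 0.222 and 0.315 RPKM in MA, without overlap, and an opposite-strand gene shares 563 exonic bases with it. Its head-to-head neighbour Col4a4 was at 0.0985, 0.147 and 0.0927 RPKM in control and at 0.131, 0.220 and 0.430 RPKM in MA, so the groups overlapped. Col4a6 lay between 0.134 and 0.198 RPKM in all 6 libraries. Over all 6 type IV genes the summed level was 10.6 to 13.6 RPKM in control and 14.5 to 18.7 RPKM in MA.

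As a description, the tested genes outside the group whose values followed the mean profile of Col4a1 and Col4a2 most closely over the 6 libraries were Lcmt2 (Pearson r = 0.990), Ppp3cc (0.987) and Cyp4f15 (0.986), among 13283 genes compared. These correlations include the difference between the groups.

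Type VI collagen forms beaded microfibrils from the chains of Col6a1, Col6a2 and Col6a3, and the differences of Col6a1 and Col6a2 were opposite in sign to that of Col6a3. Col6a1 (chromosome 10, 76708792 to 76726168) was at 1.82, 3.24 and 2.83 RPKM in control and at 5.32, 4.65 and 6.76 RPKM in MA. Each MA library was well above each control library, with means of 2.63 ± 0.732 and 5.57 ± 1.08 RPKM (SD, n = 3 each) and a difference of 0.86 (standard error 0.19, limma adjusted p = 0.185). Col6a2, its neighbour on the same strand (76595762 to 76623630), was at 1.03, 1.74 and 1.80 RPKM in control and at 2.99, 2.11 and 2.49 RPKM in MA. The groups did not overlap, and the difference was 0.49 (standard error 0.16, limma adjusted p = 0.361). Col6a3, which lies on chromosome 1 and fell under the filter, was at 0.795, 0.306 and 0.844 RPKM in control and at 0.191, 0.152 and 0.270 RPKM in MA. Its MA libraries thus all lay below its control libraries, with a difference of -0.44 (limma adjusted p = 0.371 in the fit without the filter). Col6a4 overlapped between the groups, with its highest levels in Control replicate 1 and MA replicate 3, at 1.23 and 1.36 RPKM. Col6a5 and Col6a6 were at most 0.305 and 0.0699 RPKM.

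The windows of the neighbours Col6a1 and Col6a2 are shown for comparison with the type IV pair, with the same boxes in capitals. They share no bases.
Col6a1, chr10:76725995-76726294, minus strand: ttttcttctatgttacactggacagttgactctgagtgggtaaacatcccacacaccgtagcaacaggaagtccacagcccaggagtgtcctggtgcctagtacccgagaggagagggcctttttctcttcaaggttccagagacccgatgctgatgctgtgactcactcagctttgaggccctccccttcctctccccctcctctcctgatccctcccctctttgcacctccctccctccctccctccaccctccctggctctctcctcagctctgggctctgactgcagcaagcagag
Col6a2, chr10:76623355-76623654, minus strand: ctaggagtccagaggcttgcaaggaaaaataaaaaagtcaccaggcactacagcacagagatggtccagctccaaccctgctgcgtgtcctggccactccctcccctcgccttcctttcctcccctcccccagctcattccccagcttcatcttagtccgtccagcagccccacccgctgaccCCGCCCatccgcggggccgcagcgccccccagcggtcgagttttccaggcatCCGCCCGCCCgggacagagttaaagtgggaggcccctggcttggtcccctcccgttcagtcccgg
The Col6a1 window held none of the boxes and the Col6a2 window held 3 GC boxes. The share of G and C was 57.3% and 64.3%, against 74.0% for Col4a1 and 73.7% for Col4a2.

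The 2 tested members of largest difference, Col9a3 and Col8a2, belong to other classes. Col8a2 (chromosome 4, 126286793 to 126314330) encodes a short-chain, network-forming collagen known from the corneal basement membrane. It was at 0.544, 0.419 and 0.631 RPKM in control and at 1.29, 3.10 and 2.73 RPKM in MA, with means of 0.531 ± 0.107 and 2.37 ± 0.956 RPKM (SD, n = 3 each), a 4.46-fold difference of the mean RPKM. Every MA library was above every control library, by a difference of 1.10 on the log2 scale (standard error 0.22, limma adjusted p = 0.147). It passed the adjusted threshold without MA replicate 1 (limma adjusted p = 0.0371, with 0.113% of all tested genes called) and with sample quality weights (0.0268, with 4.4% called), and over all 14 alternatives its adjusted p was between 0.0268 and 0.541.

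Col9a3 (chromosome 2, 180597790 to 180622189), a chain of the fibril-associated type IX collagen of cartilage, was at 5.64, 8.01 and 8.69 RPKM in control and at 10.7, 13.3 and 37.0 RPKM in MA. The groups did not overlap, and MA replicate 3 was far above the other MA libraries. The difference was 1.15 (standard error 0.41, limma adjusted p = 0.406), and 0.63 without MA replicate 3. Its 6 libraries stood in the same order as the summed level of the choroid plexus markers, which held for 2 of the 54 members, Col9a3 and the low Col17a1. The share of all tested genes with this order was not counted, so whether the match is unusual is not known. The part of that tissue in the difference was not tested. Exons of Col9a3 and Tcfl5 overlap by 234 bases on opposite strands, and whether counting used strand is not given in the sources used here. Of the other type IX chains, Col9a2 was at 2.58 to 4.87 RPKM in control and 3.36 to 5.41 RPKM in MA with overlap (limma adjusted p = 0.745), and Col9a1 was at most 0.301 RPKM.

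Among the transmembrane collagens, Col23a1 (chromosome 11, 51289920 to 51583918) was at 1.18, 1.38 and 1.31 RPKM in control and at 2.95, 2.76 and 2.07 RPKM in MA. The control libraries lay close together and all MA libraries lay above them, with means of 1.29 ± 0.0991 and 2.59 ± 0.466 RPKM (SD, n = 3 each) and a difference of 0.64 (standard error 0.13, limma adjusted p = 0.147). It passed the adjusted threshold without MA replicate 3 (limma adjusted p = 0.0301, with 1.93% of all tested genes called) and with sample quality weights (0.012), and its adjusted p over the 14 alternatives ranged from 0.012 to 0.563. Col25a1, a neuronal membrane collagen known from amyloid plaques, was at 6.51, 5.98 and 7.09 RPKM in control and at 9.37, 9.05 and 5.74 RPKM in MA. MA replicates 1 and 2 were above all control libraries and MA replicate 3 was below them (difference 0.24, standard error 0.17, limma adjusted p = 0.691, and 0.44 without MA replicate 3). The summed level of 8 thalamic markers was 65.7 and 80.4 RPKM in MA replicates 1 and 2 and 26.8 to 38.1 RPKM in the other 4 libraries. The summed hippocampal neuron markers were also highest in MA replicates 1 and 2 (1579.4 and 1797.7 RPKM) and lowest in MA replicate 3 (1280.4 RPKM), with 1451.4 to 1575.0 RPKM in control. The part of thalamic tissue or of hippocampal neurons in the level of Col25a1 was not tested. Col13a1, found at neuromuscular junctions, overlapped between the groups (limma adjusted p = 0.911).

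Col18a1, the basement membrane collagen from which endostatin is cleaved, was at 0.706, 0.994 and 0.923 RPKM in control and at 1.09, 1.35 and 1.53 RPKM in MA. Its groups did not overlap (difference 0.31, standard error 0.12, limma adjusted p = 0.452). Col15a1, of the same multiplexin class, was at 0.876 to 1.96 RPKM with overlap and a difference of -0.02 (limma adjusted p = 0.985). Of the other fibril-associated collagens, Col16a1 had the highest level after Col9a3, at 2.05, 4.55 and 3.21 RPKM in control and 3.87, 3.74 and 6.73 RPKM in MA. The groups overlapped (difference 0.44, standard error 0.26, limma adjusted p = 0.624), and the difference was 0.21 without MA replicate 3 and 0.22 without Control replicate 1.

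Of the 9 tested fibrillar collagens, 1 differed at an unadjusted p under 0.05 (limma), where 10.4% of all tested genes did. This was Col5a3, a minor chain of the type V collagen that regulates fibril diameter, at 0.649, 0.535 and 0.452 RPKM in control and 0.837, 1.15 and 1.32 RPKM in MA. Its groups did not overlap, with a difference of 0.44 (standard error 0.13, limma adjusted p = 0.306). The genes of the main connective tissue fibrils differed little: Col1a1 by 0.02 (standard error 0.11) and Col3a1 by 0.03 (standard error 0.18), with limma adjusted p-values of 0.970 and 0.968. Col1a2 was at 2.06 to 2.73 RPKM in control and 2.63 to 3.001 RPKM in MA, with overlap and a difference of 0.16 (standard error 0.11, limma adjusted p = 0.697). The chains of type XI collagen, which nucleates fibrils, had lower means in MA with overlapping groups. Col11a2 was at 8.25, 5.65 and 4.002 RPKM in control and 4.10, 3.16 and 6.14 RPKM in MA (difference -0.34, standard error 0.27, limma adjusted p = 0.719). It was -0.55 without MA replicate 3 and -0.11 without Control replicate 1. Col11a1 was at 1.51, 1.44 and 1.27 RPKM in control and 0.746, 1.02 and 1.60 RPKM in MA (difference -0.20, standard error 0.16, limma adjusted p = 0.719, and -0.36 without MA replicate 3).

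The tested laminin beta chain genes, Lamb1 and Lamb2, had differences of opposite sign. Lamb1 (chromosome 12, 31265234 to 31329644), the beta chain of early and widespread laminins, was at 8.64, 7.03 and 5.65 RPKM in control and at 4.40, 5.56 and 5.37 RPKM in MA. It was the 1 tested member below the control range in each MA library, although Control replicate 3 was close to MA replicate 2 (difference -0.40, standard error 0.16, limma adjusted p = 0.440). Lamb2 (chromosome 9, 108479736 to 108490530), the beta chain of vascular and synaptic basement membranes, was at 6.66, 6.46 and 6.51 RPKM in control and at 8.60, 8.21 and 7.19 RPKM in MA. The control libraries differed little and the MA libraries lay above them (difference 0.25, standard error 0.10, limma adjusted p = 0.437). Mean levels of Lamb1 were 7.11 ± 1.49 and 5.11 ± 0.620 RPKM in control and MA (SD, n = 3 each). Lamb3, of epithelial laminins, was at 0.127 to 0.846 RPKM and fell under the filter.

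Of the gamma chains, Lamc1, which most laminins share, was at 7.92, 9.63 and 9.39 RPKM in control and at 6.64, 6.22 and 9.34 RPKM in MA. MA replicates 1 and 2 were below all control libraries and MA replicate 3 was within their range (difference -0.26, standard error 0.15, limma adjusted p = 0.618, and -0.42 without MA replicate 3). Lamc3 was at 0.690, 0.732 and 0.729 RPKM in control and at 1.17, 1.07 and 0.920 RPKM in MA. The groups did not overlap (difference 0.26, standard error 0.10, limma adjusted p = 0.458), and an opposite-strand gene shares 382 exonic bases with it.

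The alpha chains, which set the binding properties of a laminin, showed no difference at an unadjusted p under 0.05 in 4 tested genes. Lama4 and Lama5 encode the alpha chains made by endothelium. Lama4 was at 0.758, 1.82 and 1.55 RPKM in control and at 1.17, 1.03 and 0.639 RPKM in MA, with overlap (difference -0.27, standard error 0.20, limma adjusted p = 0.707, and -0.15 without MA replicate 3). Lama5 was at 4.01, 1.40 and 1.19 RPKM in control and at 1.66, 1.48 and 5.80 RPKM in MA. Control replicate 1 and MA replicate 3 thus stood above the other libraries, and the difference of 0.26 (standard error 0.45, limma adjusted p = 0.900) was -0.21 without MA replicate 3 and 0.63 without Control replicate 1. Lama2, whose loss causes a muscular dystrophy, was at 0.880 to 1.15 RPKM in control and 0.911 to 1.05 RPKM in MA. Lama3 was at 0.382 to 0.667 RPKM over the 6 libraries, and Lama1, at 0.175 to 0.347 RPKM, fell under the filter.

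**Figure D3:**
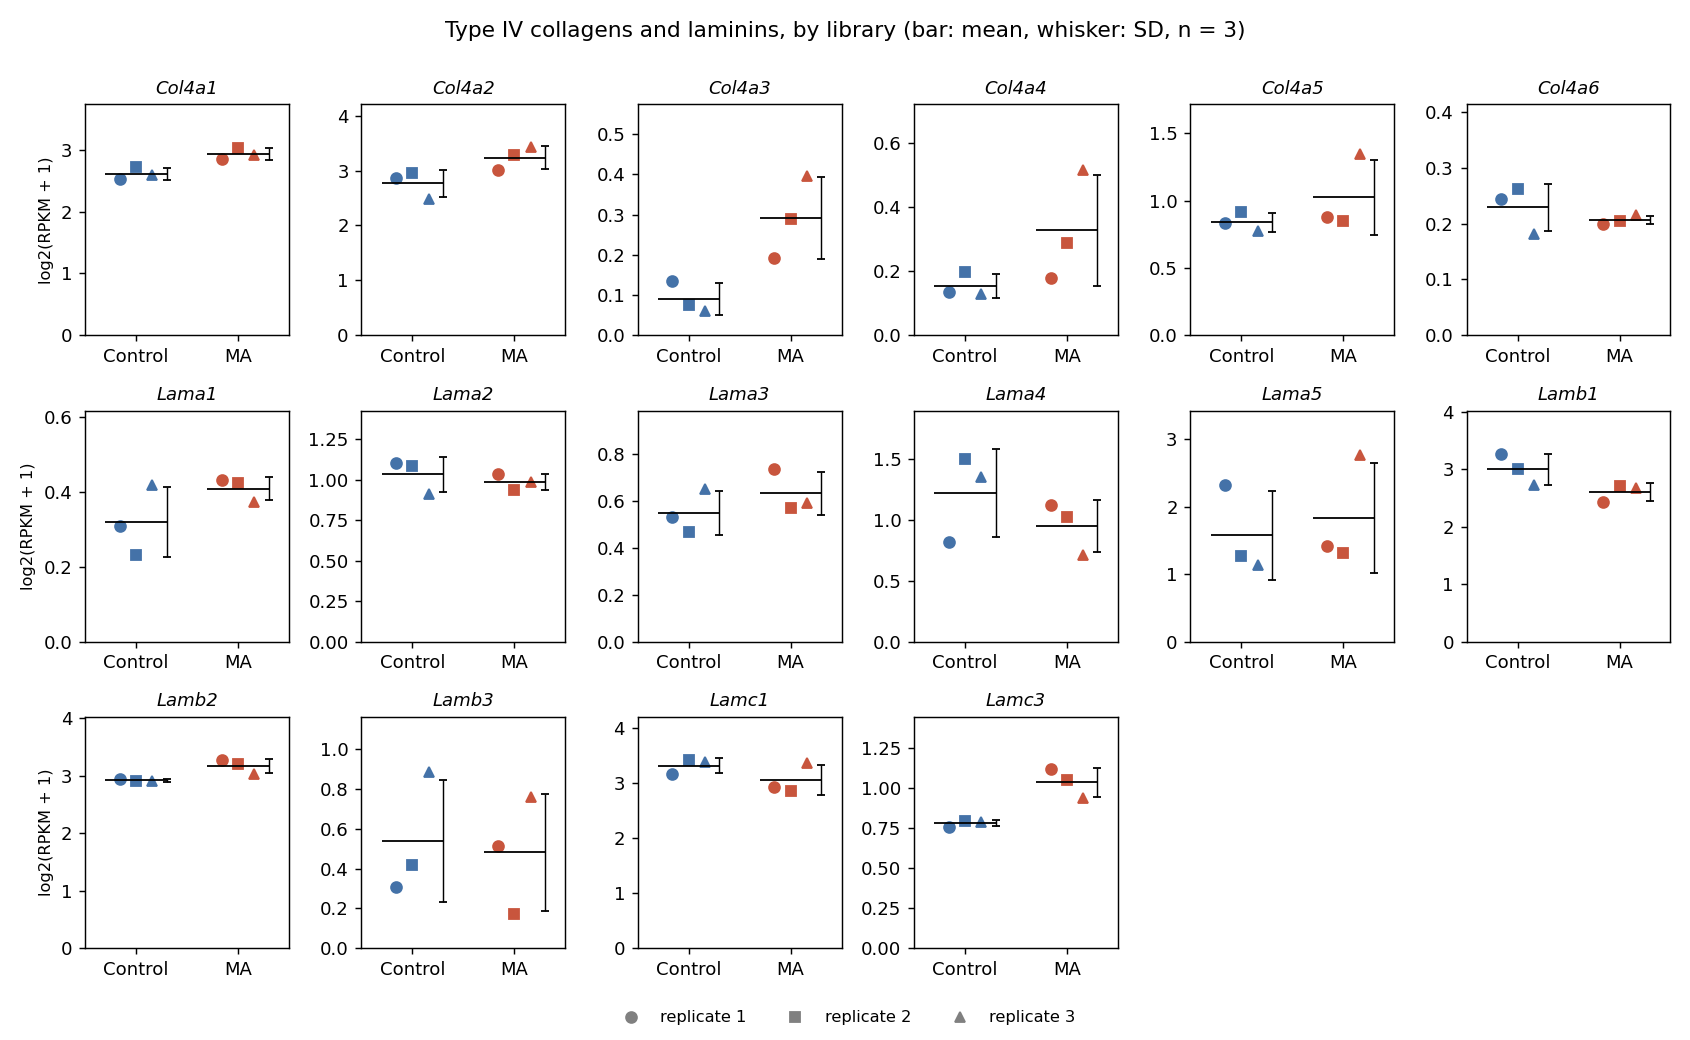
Levels of the 6 type IV collagen genes and of the laminin genes described here in each library, in log2(RPKM + 1) on axes that start at 0, with the mean (bar) and SD (whisker) of 3 libraries. Col4a1, Col4a2, Col4a3, Lamb2 and Lamc3 are higher and Lamb1 is lower in each MA library, while Lama5 is high in Control replicate 1 and MA replicate 3.

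Of the 54 genes, 16 did not reach the filter, and their highest level in any library was 0.846 RPKM. In 12 of them the groups overlapped. Beside Col4a3 and Col6a3, the groups were apart for Col22a1, at 0.201 to 0.275 RPKM in control and 0.406 to 0.600 RPKM in MA, and for Col17a1, a hemidesmosome collagen, listed at 0 to 0.0238 RPKM in control and at 0.0982 to 0.357 RPKM in MA. Of the 2739 genes under the filter, 7.34% lay higher and 5.37% lower in MA without overlap, against 3 and 1 of these 16. The others were Col2a1, Col4a4, Col4a6, Col6a5, Col6a6, Col9a1, Col10a1, Col20a1, Col24a1, Col28a1, Lama1 and Lamb3.

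Summed over the 43 collagen genes, the level was 62.1, 69.1 and 65.9 RPKM in control and 82.6, 84.4 and 121.5 RPKM in MA, so that each MA library held more than each control library. The means were 65.7 ± 3.50 and 96.2 ± 22.0 RPKM (SD, n = 3 each), and the difference of 30.4 RPKM was 17.8 RPKM without MA replicate 3. Without Col9a3 the sums were 56.5 to 61.1 and 71.1 to 84.5 RPKM. The 11 laminin genes summed to 31.2, 30.1 and 29.0 RPKM in control and 27.5, 26.3 and 32.9 RPKM in MA, with overlap. Endothelial markers summed to 160.8 to 183.4 RPKM in control and 178.4 to 223.4 RPKM in MA, with 2 of 10 higher at an unadjusted p under 0.05, and markers of pericytes and smooth muscle to 92.9 to 102.0 and 98.7 to 102.0 RPKM, with 0 of 10 past that threshold in either direction. Among all tested genes, 4.99% were higher and 5.46% lower at that threshold.

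**Figure D4:**
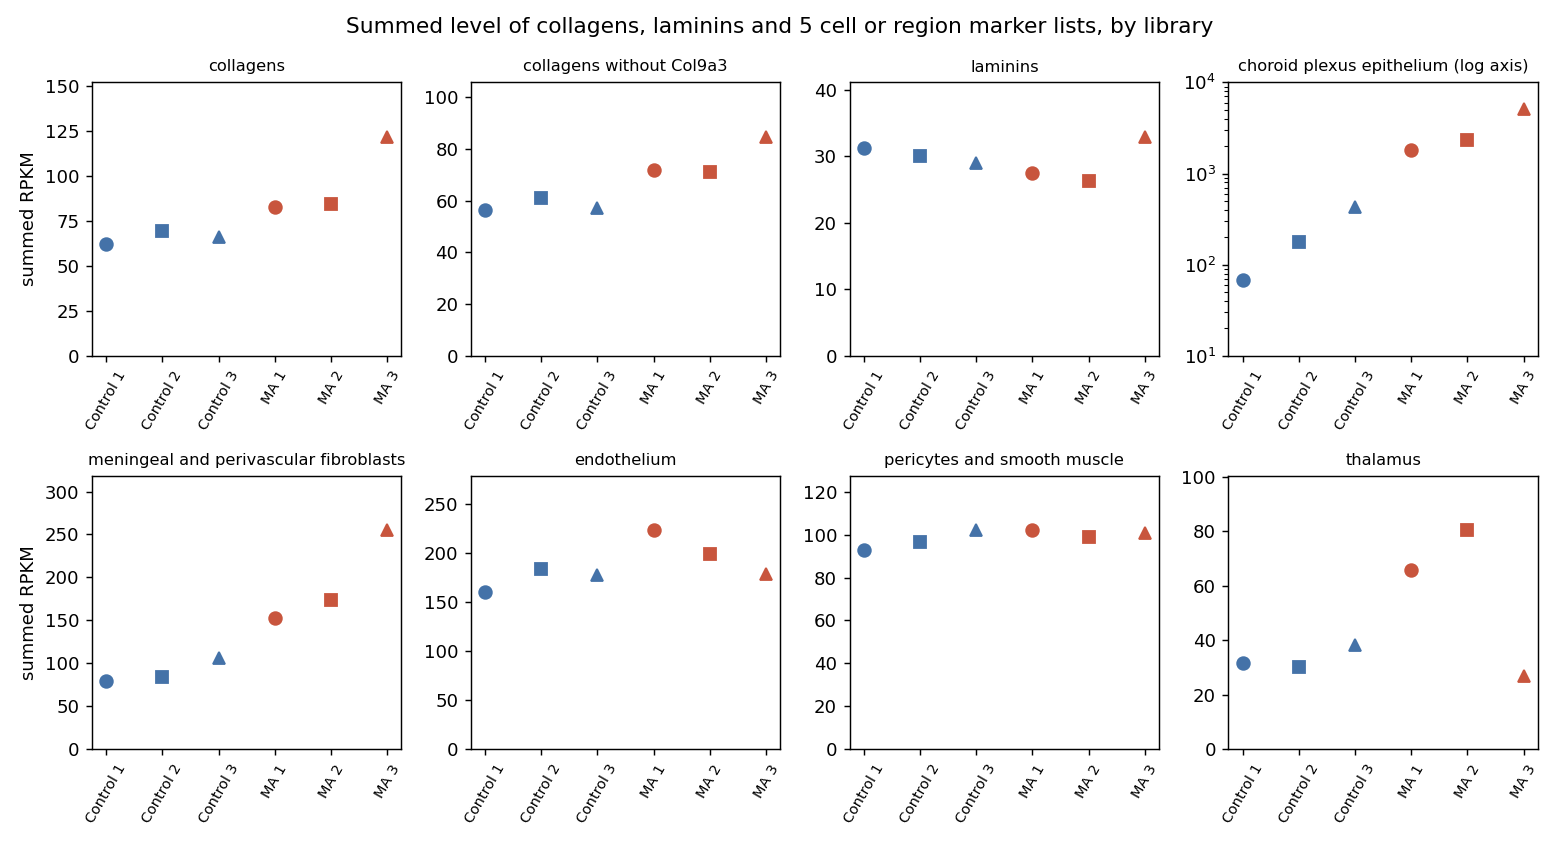
Summed level in RPKM of the collagens, the collagens without Col9a3, the laminins and 5 marker lists in each of the 6 libraries. All axes are linear from 0 except that of the choroid plexus markers, which is logarithmic, and the collagen sums are higher in each MA library while the laminin sums overlap.

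Genes that fold, modify and process collagen chains lay on both sides of 0. Of 25 tested rows of the biosynthesis list, in which Mia3 holds 2 rows, 4 were lower and 1 was higher in MA at an unadjusted p under 0.05, and 0 passed the adjusted threshold (limma). Among all tested genes, 5.46% were lower and 4.99% higher at the unadjusted threshold. P4ha1, a catalytic subunit of the prolyl 4-hydroxylase that stabilises the triple helix, was at 31.0, 23.5 and 26.3 RPKM in control and at 14.4, 17.0 and 15.4 RPKM in MA. The groups were well apart, with a difference of -0.74 (standard error 0.12, limma adjusted p = 0.0785). Serpinh1, the collagen-specific chaperone of the endoplasmic reticulum, was at 16.6, 15.5 and 18.6 RPKM in control and at 9.84, 10.7 and 12.9 RPKM in MA (difference -0.57, standard error 0.12, limma adjusted p = 0.186). P4ha2 and the lysyl hydroxylase gene Plod1 had differences of -0.52 and -0.33 (limma adjusted p = 0.252 and 0.264), with all MA below all control libraries for both. P4ha1, P4ha2 and Serpinh1 passed the adjusted threshold without MA replicate 3 (limma adjusted p = 0.0498, 0.0443 and 0.0342), where 1.93% of all tested genes did. The gene higher in MA was Pcolce, which encodes an enhancer of procollagen cleavage outside the cell, at 5.36, 3.33 and 4.97 RPKM in control and 7.16, 7.18 and 17.5 RPKM in MA (difference 0.97, standard error 0.33, limma adjusted p = 0.370, and 0.58 without MA replicate 3).

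**Figure D5:**
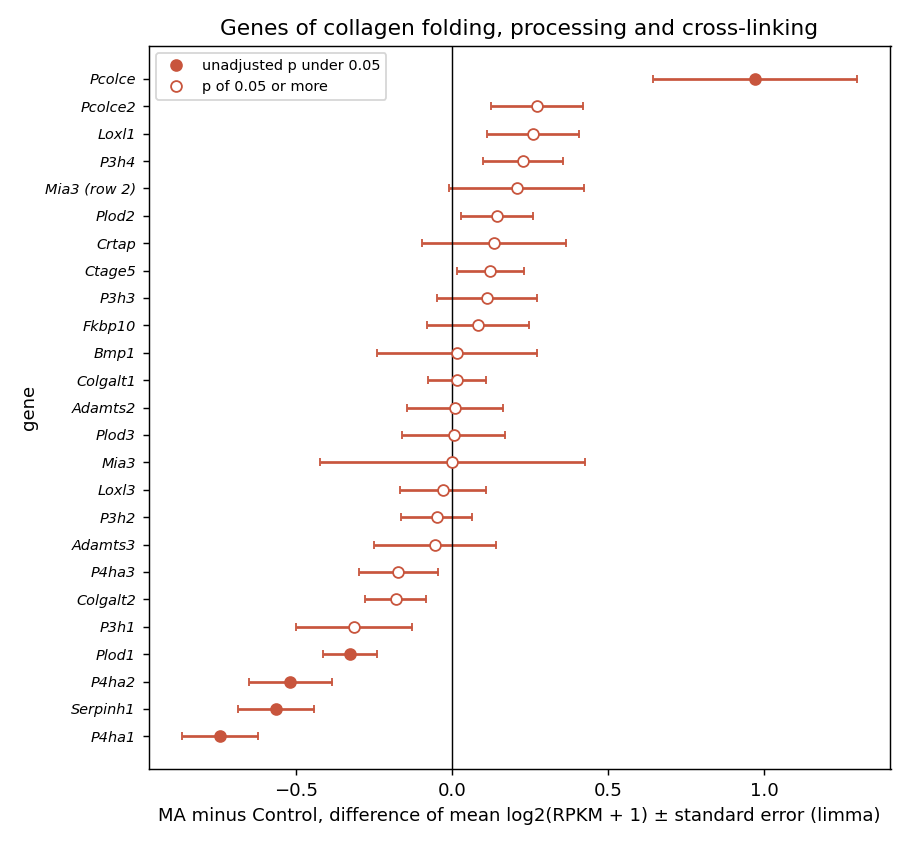
Difference between MA and control of the 25 tested rows of genes for collagen folding, processing and cross-linking, in mean log2(RPKM + 1) with the limma standard error. Filled points have an unadjusted p under 0.05: P4ha1, Serpinh1, P4ha2 and Plod1 lie to the left of 0 and Pcolce lies to the right.

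Of 16 tested basement membrane partners, 2 were higher and 2 lower in MA at an unadjusted p under 0.05 (limma), against 4.99% and 5.46% of all tested genes. Among these partners 0 passed the adjusted threshold. Frem1, of the epidermal basement membrane, had the smallest p among those higher, at 0.349 to 0.468 RPKM in control and 0.685 to 0.873 RPKM in MA (difference 0.32, limma adjusted p = 0.365). The nidogen gene Nid2, whose product links laminin to type IV collagen, was at 0.458 to 0.568 and 0.752 to 0.885 RPKM (difference 0.26, limma adjusted p = 0.452). Thbs4, a thrombospondin, was at 4.46 to 8.04 RPKM in control and at 1.93, 1.47 and 4.93 RPKM in MA (difference -0.98, limma adjusted p = 0.380, and -1.36 with adjusted p = 0.0392 without MA replicate 3), and the integrin ligand gene Npnt was lower in each MA library (difference -0.27, limma adjusted p = 0.473).

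Of 15 tested receptors, 2 were higher and 1 lower at an unadjusted p under 0.05 (limma), against 4.99% and 5.46% of all tested genes. Itga3, an integrin chain that binds laminin, was at 1.84 to 3.34 RPKM in control and 3.87 to 4.03 RPKM in MA (difference 0.47, limma adjusted p = 0.375). Itga6, another laminin-binding chain, had a difference of -0.30 with overlapping groups (limma adjusted p = 0.442). Of 17 tested proteases and inhibitors, 3 were higher and 0 lower (limma), and for all 3, Timp2, Reck and Timp4, the groups overlapped. Timp2, which encodes an inhibitor of matrix metalloproteinases, was at 24.2, 37.8 and 45.5 RPKM in control and 80.7, 67.0 and 39.5 RPKM in MA (difference 0.77, limma adjusted p = 0.442). Ctsk, the gene for a collagen-cleaving cathepsin, had the smallest p among the lower ones (difference -0.23, limma adjusted p = 0.660). Over all 73 tested companion rows, 8 were higher and 7 lower at that threshold, where 4.99% of all tested genes were higher and 5.46% lower. The median difference of these rows was 0.01.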

How the data were processed

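RNA-seq values of hippocampi from 3 control and 3 MA mice were used, 1 library each. Reads were, by the study's account, aligned with Hisat2, counted with featureCounts and converted to FPKM, whereas the submitters' processing notes name Bowtie 0.12.2 and the builds mm8 and mm9. Library kits also differ between the labels (TruSeq) and the paper (NEB Next Ultra, poly-T selection). The deposited table, named RPKM by the authors, holds values on a log scale, read as log2(RPKM + 1), with the same highest value of 12.298 in all 6 columns, so a normalization between libraries that the sources do not describe had been applied. Depth is unknown.

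Values were tested as deposited. Genes with at least 0.5 RPKM in at least 3 libraries (13321 of 16060 rows) entered limma 3.58.1 in R 4.3.3 (eBayes with trend, MA minus control, Benjamini-Hochberg adjustment). In 10 simulated tables of 13321 genes with 200 genes shifted by 1 (log2), the median share recovered was 77% and that of false calls 4.6%. Recovery of smaller differences was not tested, and the median difference of the 38 tested members was 0.19. The members, classes and lists were chosen with earlier results of these data known. Named were the 12 members of highest mean, the 6 higher and 6 lower tested members of smallest p, all type IV collagens and laminins, and in each companion list the smallest p in each direction, and 1 member is counted but not reported here by name. Other members named beside them, and further companion genes, were chosen after their values were seen. Positions are from GENCODE M21 (GRCm38), matched by identifier for all 54 members and given for location only, and promoters are from RefSeq (GRCm38.p6). Alternatives were offsets of 0.1 and 0.01, no filter, a minimum mean of 5, median centring, quantile normalization, no eBayes trend, sample quality weights, the replicate number as a block, and leaving out each library. Medians (3.26 to 3.27 on the log2 scale) and summed levels (487712 to 488572 RPKM) of the deposited libraries were already nearly equal. Median centring and quantile normalization could therefore change little.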

Additional observations from a re-analysis of the deposited data

How the results depend on the processing

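Depth is unknown, so how far low members are limited by counting was not assessed. With sample quality weights 2 members (Col23a1 and Col8a2) and 8 companion genes passed the adjusted threshold (limma), where 4.4% of all tested genes did against 0.263% without weights, and leaving out each library gave 0 to 1 members and 0 to 6 companion genes. The 11 members higher at an unadjusted p under 0.05 became 4 of 8 tested with a minimum mean of 5 (4.46% of all tested genes). They became 5 to 10 without 1 library, where 3.21% to 11.9% of all tested genes were higher. The 1 lower member became 2 without the filter (5.17% of all genes), 4 with sample quality weights (13.4% of all tested genes) and 0 to 3 without 1 library (3 without MA replicate 3, where 11.4% of all were lower). The median difference of 0.19 was 0.30 with an offset of 0.1 and 0.30 with 0.01, 0.086 without the filter, 0.069 with sample quality weights and 0.11 to 0.24 without 1 library. The summed collagen difference was 17.8 to 37.2 RPKM and the laminin one -3.20 to 0.114 RPKM without 1 library. Of the biosynthesis genes 4 to 5 were lower at an unadjusted p under 0.05 without 1 library, the original 4 among them each time. Of all tested genes, 3.02% to 11.4% were lower in these fits, and the count of 5 and the share of 11.4% were both without MA replicate 3. Same-numbered libraries did not deviate together (r = -0.197, -0.242 and -0.337), and with the replicate number as a block 8 members were higher and 0 lower at an unadjusted p under 0.05, against 3.53% and 2.79% of all tested genes, and 0 passed the adjusted threshold (limma). Of 344 comparisons of 24 named members with an alternative, 337 kept direction and side of the adjusted threshold. As 0 members passed it in the main fit, keeping side meant only that a member again did not pass. The causes were not tested.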

Other observations

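A pattern seen after the values were examined concerned Control replicate 1 and MA replicate 3, which were the 2 highest libraries for 6 of the 38 tested members, where 9.94% of all tested genes had this order. The 6 were Col1a2, Col11a1, Col11a2, Col6a4, Col7a1 and Lama5. The gap to the next library was 0.91 on the log2 scale for Lama5, 0.49 for Col7a1 and 0.41 for Col6a4, and it was at most 0.10 for the other three. Col7a1, the anchoring fibril collagen of skin, was at 1.69, 0.750 and 0.196 RPKM in Control replicates 1, 2 and 3 and at 0.280, 0.857 and 1.60 RPKM in MA replicates 1, 2 and 3.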
